A study of Homo sapiens with 6 samples.

Results

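The SLC25 genes encode mitochondrial carriers, the membrane proteins that exchange nucleotides, amino acids, carboxylates, phosphate, cofactors and iron between the mitochondrial matrix and the cytosol. They were taken as every gene of the deposited table whose symbol is SLC25A followed by a number, which gave 43 of 15598 genes. After a filter on low counts 37 of the 43 were tested. Relatives that carry other symbols (the uncoupling proteins UCP1, UCP2 and UCP3, and MTCH1 and MTCH2) were kept apart, and SLC25A6, SLC25A24, SLC25A26, SLC25A31 and SLC25A32 were not analysed here.

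RNA was sequenced from MHCC97H, a human hepatocellular carcinoma cell line with high metastatic capacity. A group of 3 libraries came from cells with a control short hairpin RNA (shcontrol, library names NC_3, NC_3_2 and NC_3_3), and a group of 3 from cells with a hairpin against HNRNPC (shHNRNPC, library names SI_3, SI_3_2 and SI_3_3). HNRNPC encodes hnRNP C, a nuclear RNA-binding protein that takes part in splice site choice. The labels name no further agent and tell apart no second hairpin against HNRNPC, and nothing in them says whether the libraries came from separate cultures, so p-values measure the spread between these libraries, which may be technical.

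Carriers of this family sit for the most part in the inner mitochondrial membrane, where each works as an exchanger or uniporter for a small set of substrates. The ADP/ATP carriers bring ADP in and ATP out, the phosphate carrier supplies phosphate for ATP synthesis, and carriers for malate, aspartate, glutamate and citrate pass reducing equivalents and carbon across the membrane. In liver the family also serves the urea cycle and fatty acid oxidation.

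Levels are in CPM, the read count of a gene divided by the TMM-adjusted library size and scaled to 1e6, and means carry the SD with n = 3 per group. Total counts were 15563077 to 18328475 per library, so that 3 counts, the limit a count of 0 allows, corresponded to 0.161 to 0.190 CPM. Fold changes are shHNRNPC over shcontrol from edgeR's quasi-likelihood test over 11831 genes, with Benjamini-Hochberg adjustment, and a gene is called when its adjusted p is under 0.05. HNRNPC itself stood at 847, 854 and 856 CPM in shcontrol and at 61.4, 66.4 and 58.9 CPM in shHNRNPC (log2 fold change -3.77, SE 0.030, edgeR adjusted p = 5.04e-55). In such bulk RNA, fewer cells of a type and less RNA per cell cannot be told apart. The epithelial keratins KRT8 and KRT18 were abundant and rose 1.151-fold and 1.111-fold, whereas the hepatocyte markers ALB, AFP, APOA1, TF, HNF4A and SERPINA1 were under 1 CPM in all 6 libraries. Of the leukocyte markers CD68 rose from 43.2 ± 3.64 to 64.8 ± 2.12 CPM while CD3E, CD14 and LYZ were under 1 CPM. The endothelial markers summed to 0.791 to 2.10 CPM per library and the fibroblast markers to 18.9 to 21.3 CPM. The part of other cells in the results below was not tested.

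SLC25 genes moved in both directions in equal number. Of the 37 tested genes 10 rose and 10 fell, together 54.1%, against 61.1% of all tested genes that were called, 29.8% of them higher and 31.3% lower. The median log2 fold change was 0.02 for the SLC25 genes and -0.0041 for all tested genes. No SLC25 gene was called higher by at least 1.5-fold, where 4.90% of all genes were, and 2 were called lower by at least 1.5-fold (SLC25A40 and SLC25A46), where 9.12% of all genes were. The summed level of the 43 genes was 3866 ± 23.9 CPM in shcontrol and 3838 ± 26.3 CPM in shHNRNPC. The range of 3838 to 3881 CPM in the first overlapped that of 3808 to 3858 CPM in the second. Without SLC25A5, the most abundant gene, the sums were 2537, 2484 and 2539 CPM in shcontrol. In shHNRNPC they were 2474, 2473 and 2464 CPM, slightly lower and without overlap. The 3 values of each group did not overlap for 62.2% of the tested SLC25 genes and for 63.9% of all tested genes. Against this background the genes below are described one by one.

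**Figure D1:**
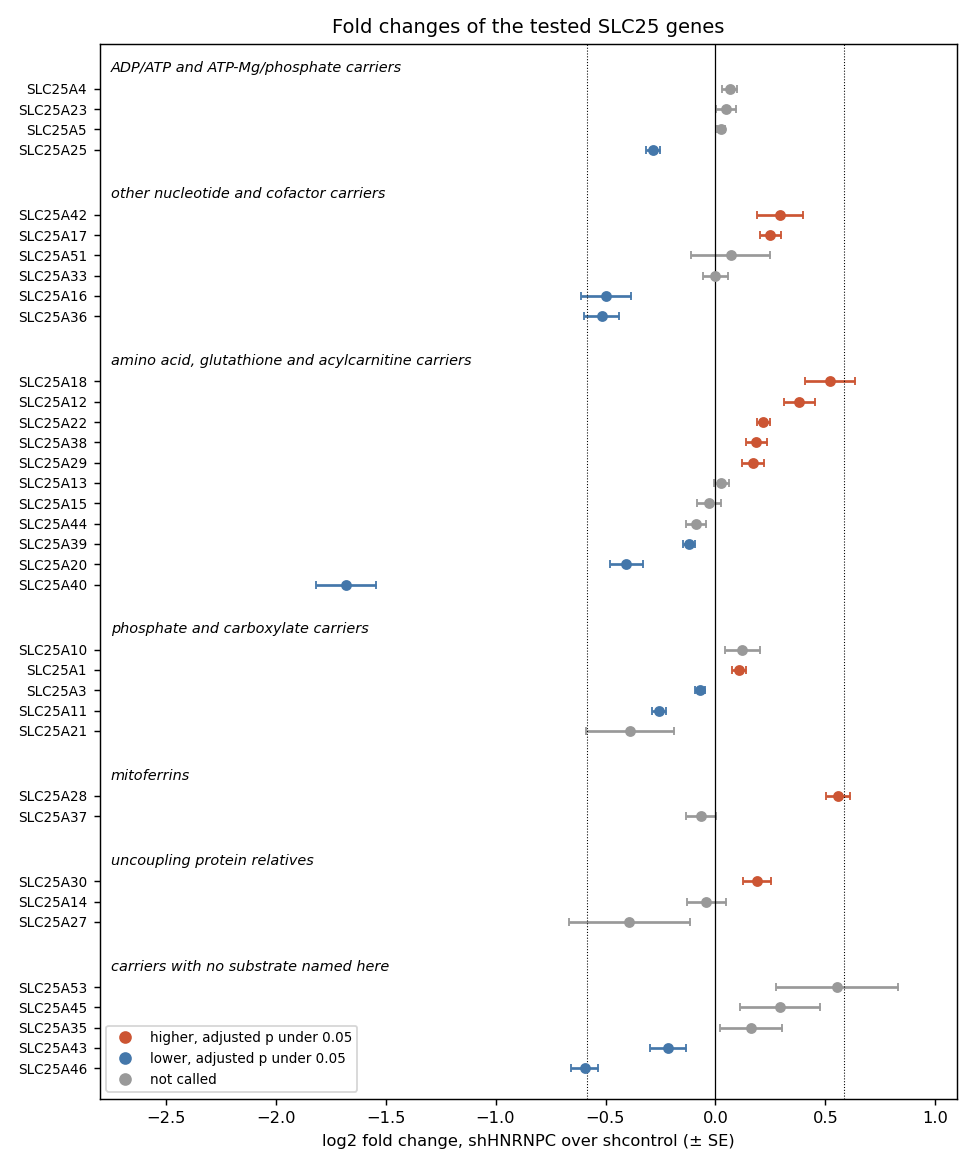
Fold changes of 36 of the 37 tested SLC25 genes by substrate group. Points are log2 fold changes of shHNRNPC over shcontrol with their standard errors, red where called higher, blue where called lower and grey where not called; dotted lines mark a 1.5-fold change. SLC25A40, at -1.68, lies far to the left of the other genes shown, which all lie between -0.59 and 0.56.

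The largest change in the family was in SLC25A40, which together with SLC25A39 has been linked to the import of glutathione into mitochondria. Counts were 245, 165 and 216 under the control hairpin and 65, 71 and 60 under the HNRNPC hairpin. Levels were 14.4, 10.4 and 11.6 CPM against 3.95, 4.05 and 3.39 CPM. Every shHNRNPC library lay below every shcontrol library, and the shcontrol library NC_3 was the highest of its group. SLC25A40 fell 3.20-fold (log2 fold change -1.68, SE 0.14, edgeR adjusted p = 8.87e-15), and among the 11831 tested genes it ranked 17 from the lowest. The log2 fold change was -1.54 without NC_3. In the authors' deposited table its log2 fold change is -1.68.

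In the deposited table SLC25A40 lies on chromosome 7, 87833568 to 87876349, on the minus strand. Its neighbour DBF4, which encodes the regulatory subunit of the CDC7 kinase needed to start DNA replication, begins on the opposite strand beside it. In GENCODE 29 the annotated ends of the 2 genes overlap by 142 bases, and since the use of strand in counting is not given in the sources used here, reads in that overlap cannot be told apart. By the RefSeq start sites (GRCh38.p14) 132 bases lie between the first bases of the genes, and this stretch is shown because transcripts leave it in both directions and fell on both sides. It is printed 5′ to 3′ on the minus strand, reading toward SLC25A40, with capitals for 3 promoter motifs searched on both strands: the GC box GGGCGG, the CCAAT box CCAAT and the ETS core CCGGAAG.
SLC25A40 to DBF4, chr7:87876361-87876492: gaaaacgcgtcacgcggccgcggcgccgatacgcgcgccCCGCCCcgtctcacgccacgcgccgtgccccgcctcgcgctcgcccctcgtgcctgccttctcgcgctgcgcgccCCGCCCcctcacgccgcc

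The stretch held 2 GC boxes and neither of the other motifs. Levels of DBF4 were 10.9, 13.9 and 14.1 CPM in shcontrol and 10.04, 9.58 and 9.90 CPM in shHNRNPC, so that NC_3, the highest library for SLC25A40, was the lowest of its group for DBF4. DBF4 fell 1.32-fold (log2 fold change -0.40, SE 0.11, edgeR adjusted p = 0.00115), a smaller change than that of SLC25A40. The difference between the 2 genes was not tested.

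SLC25A39, the close relative of SLC25A40, was far more abundant. It stood at 281, 271 and 277 CPM in shcontrol and at 256, 254 and 252 CPM in shHNRNPC. The groups did not overlap, and SLC25A39 fell 1.09-fold (log2 fold change -0.12, SE 0.026, edgeR adjusted p = 8.83e-05). Corrected for the GC content and length of their transcripts (the GC and length correction), the log2 fold changes were -0.32 for SLC25A39 and -1.30 for SLC25A40. Per kilobase of transcript, SLC25A39 was at 172 ± 3.20 and SLC25A40 at 3.00 ± 0.502 RPKM (CPM per kilobase) in shcontrol. The log2 ratio of SLC25A40 to SLC25A39 counts was -4.52 ± 0.21 in shcontrol and -6.07 ± 0.13 in shHNRNPC. Their coding sequences are 61.2% identical over 993 aligned bases, and SLC25A40 shares no stretch of 50 bases with another annotated transcript. Their transcripts differ in composition, with 34.2% GC in SLC25A40 and 62.0% GC in SLC25A39.

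SLC25A46, an outer mitochondrial membrane member of the family that takes part in mitochondrial fission and lipid exchange, had the next largest fall. Its levels were 40.5, 38.8 and 41.7 CPM in shcontrol and 27.8, 26.6 and 25.8 CPM in shHNRNPC. The groups were well apart and tight within themselves. SLC25A46 fell 1.51-fold (log2 fold change -0.59, SE 0.062, edgeR adjusted p = 1.63e-11). This lies just past the 1.5-fold line, and the gene crossed to the other side of it under upper quartile scaling (-0.58), after the GC and length correction (-0.46), and without NC_3_3 or SI_3_3 (both -0.57), while staying called. The 250 bases before its RefSeq start, which lies upstream of the start at 110741678 in the deposited table, are shown as those of the other gene past the line.
SLC25A46, chr5:110738757-110739006, plus strand: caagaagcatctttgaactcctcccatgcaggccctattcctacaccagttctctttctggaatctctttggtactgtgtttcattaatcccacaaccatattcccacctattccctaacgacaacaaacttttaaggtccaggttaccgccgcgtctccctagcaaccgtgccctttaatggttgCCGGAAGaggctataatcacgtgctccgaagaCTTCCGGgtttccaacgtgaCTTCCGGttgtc

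This window held 3 ETS cores and none of the other motifs. The gene with the largest called rise was SLC25A28, and its window is given for comparison.
SLC25A28, chr10:99620440-99620689, minus strand: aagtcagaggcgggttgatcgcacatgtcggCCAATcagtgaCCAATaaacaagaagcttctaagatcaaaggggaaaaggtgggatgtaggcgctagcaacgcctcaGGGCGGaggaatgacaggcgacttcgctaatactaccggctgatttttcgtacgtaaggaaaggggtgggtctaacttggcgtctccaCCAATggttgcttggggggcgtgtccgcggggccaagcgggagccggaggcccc

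It held 3 CCAAT boxes, 1 GC box and no ETS core. RefSeq promoters were found for 36 of the 43 genes. In the 250 bases before the start, the GC box occurred in 75.0% of these 36 and in 42.3% of 27305 promoters of all kinds of gene, the CCAAT box in 47.2% and 33.0%, and the ETS core in 19.4% and 8.82%. These are matches of letters only.

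The mitoferrins bring iron into mitochondria for heme and iron-sulfur cluster synthesis, SLC25A37 (mitoferrin 1) chiefly in red cell precursors and SLC25A28 (mitoferrin 2) in most tissues. SLC25A28 stood at 34.4, 34.0 and 34.9 CPM in shcontrol and at 49.9, 51.4 and 50.7 CPM in shHNRNPC. Libraries within a group were nearly equal and the groups far apart. SLC25A28 rose 1.47-fold (log2 fold change 0.56, SE 0.054, edgeR adjusted p = 2.56e-12), and 0.36 after the GC and length correction. SLC25A37 stood at 27.4, 26.8 and 28.6 CPM in shcontrol and at 25.4, 27.1 and 26.7 CPM in shHNRNPC, with overlapping groups and a log2 fold change of -0.07 (SE 0.067, edgeR adjusted p = 0.405).

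**Figure D2:**
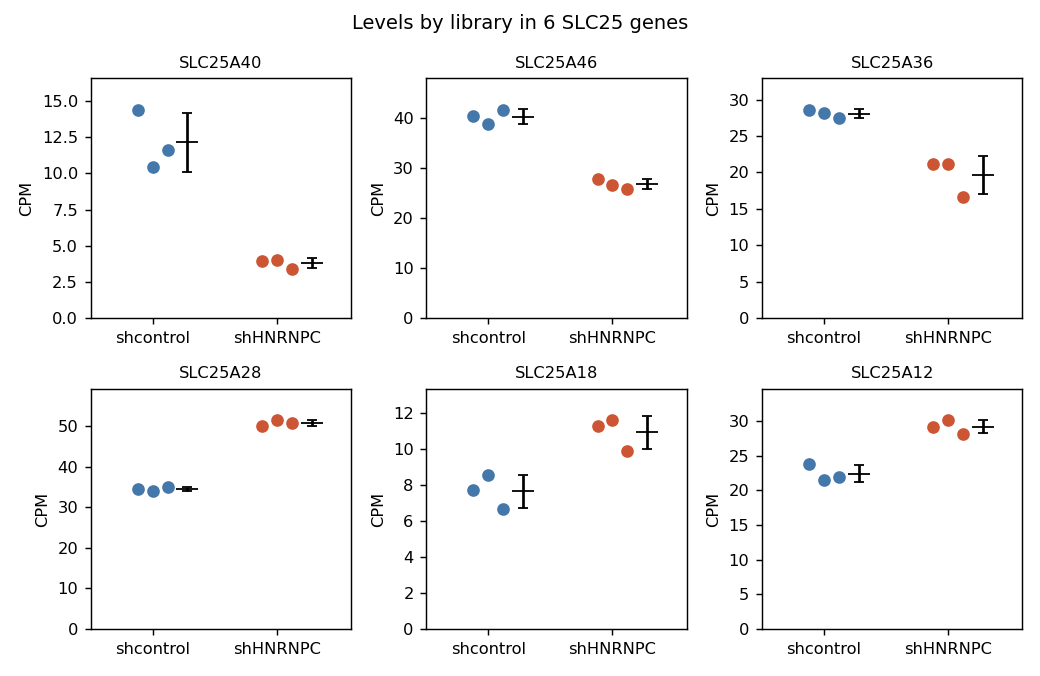
Levels of 6 SLC25 genes in CPM. Each point is a library, with the mean and SD of 3 libraries beside it, and every axis starts at 0. SLC25A40, SLC25A46 and SLC25A36 are lower and SLC25A28, SLC25A18 and SLC25A12 higher in all 3 shHNRNPC libraries than in any shcontrol library.

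Among carriers of amino acids, glutathione and acylcarnitine, 11 of 12 were tested, of which 5 rose and 3 fell, with a median log2 fold change of 0.03. The shares over all tested genes were 29.8% higher and 31.3% lower. The aspartate/glutamate carriers work in the malate-aspartate shuttle. SLC25A12 (aralar) stood at 23.8, 21.4 and 21.9 CPM in shcontrol and at 29.2, 30.1 and 28.2 CPM in shHNRNPC, a 1.302-fold rise (log2 fold change 0.38, SE 0.070, edgeR adjusted p = 7.07e-06) with no overlap. SLC25A13 (citrin), the form typical of liver, stood at 118, 116 and 123 CPM and at 123, 119 and 121 CPM, and did not pass (log2 fold change 0.03, SE 0.035). SLC25A12 overlaps HAT1 on the other strand over 61235 bases in GENCODE 29, which bears on its counts if strand was not used.

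Both glutamate carriers rose. SLC25A18 had 7.70, 8.54 and 6.67 CPM in shcontrol and 11.3, 11.6 and 9.90 CPM in shHNRNPC, a 1.43-fold rise (log2 fold change 0.52, SE 0.12, edgeR adjusted p = 1.25e-04). SLC25A22, the more abundant form, stood at 173, 167 and 168 CPM in shcontrol and at 198, 191 and 201 CPM in shHNRNPC, a 1.16-fold rise (log2 fold change 0.22, SE 0.030), which was 0.08 after the GC and length correction. SLC25A38, a glycine carrier needed for heme synthesis, rose 1.14-fold, from 52.6 ± 1.33 to 59.8 ± 1.86 CPM, but was not called after that correction (log2 fold change 0.04, adjusted p = 0.453). SLC25A29, a carrier of basic amino acids, rose 1.12-fold, from 53.5 ± 2.02 to 60.1 ± 2.86 CPM.

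SLC25A20, the carnitine/acylcarnitine carrier that brings fatty acids in for oxidation, fell 1.33-fold. Its levels were 24.5, 25.7 and 27.6 CPM in shcontrol and 19.3, 20.9 and 18.5 CPM in shHNRNPC, without overlap (log2 fold change -0.41, SE 0.075, edgeR adjusted p = 8.06e-06). SLC25A15, the ornithine carrier of the urea cycle, stood at 44.0 ± 1.13 and 43.1 ± 1.92 CPM (log2 fold change -0.03). SLC25A44, which carries branched-chain amino acids, stood at 71.9 ± 1.43 and 67.6 ± 2.64 CPM (log2 fold change -0.09, edgeR adjusted p = 0.0764). The correction for GC and length moved both past the threshold on the lower side, with log2 fold changes of -0.17 for each. SLC25A44 was also called lower with library size alone (-0.13) and without SI_3_3 (-0.12). SLC25A2, a second ornithine carrier, had 0 or 1 count per library.

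Neither ADP/ATP carrier analysed here passed the threshold. SLC25A5, the form of dividing cells and the most abundant gene of the family, stood at 1340, 1354 and 1342 CPM in shcontrol and at 1384, 1375 and 1344 CPM in shHNRNPC, with overlapping groups (log2 fold change 0.02, SE 0.018, edgeR adjusted p = 0.277). It took 34.8% ± 0.415 of all SLC25 counts in shcontrol and 35.6% ± 0.300 in shHNRNPC. Its sign depended on scaling, since the log2 fold change was -0.02 with library size alone, and after the GC and length correction it was called lower at -0.13. SLC25A4, the form of heart and muscle, stood at 127, 128 and 125 CPM and at 139, 131 and 128 CPM (log2 fold change 0.07, edgeR adjusted p = 0.103), and was called at 0.08 with upper quartile scaling, 0.11 after the GC and length correction and 0.09 without SI_3_3.

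Of the ATP-Mg/phosphate carriers, which set the adenine nucleotide pool of the matrix, SLC25A25 fell 1.22-fold. Its levels were 166, 166 and 172 CPM in shcontrol and 140, 138 and 137 CPM in shHNRNPC, with no overlap (log2 fold change -0.28, SE 0.032, edgeR adjusted p = 1.03e-10). SLC25A23 stood at 63.5, 65.3 and 68.5 CPM and at 69.0, 68.8 and 66.3 CPM and did not pass (log2 fold change 0.05, SE 0.045). SLC25A41 had 0 to 5 counts per library and was not tested.

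Among the phosphate and carboxylate carriers 1 rose and 2 fell of 5 tested, where 29.8% of all tested genes rose and 31.3% fell. SLC25A3, the phosphate carrier and the next most abundant gene of the family, stood at 540, 526 and 553 CPM in shcontrol and at 511, 516 and 517 CPM in shHNRNPC. This was a 1.05-fold fall with no overlap (log2 fold change -0.07, SE 0.022, edgeR adjusted p = 0.00732), but it lost its call without NC_3_3 (-0.05, adjusted p = 0.0868) and turned to a called rise of 0.11 after the GC and length correction. That correction took the longest coding transcript of SLC25A3, of 6087 bases, where the principal transcript has 1678. SLC25A11, the oxoglutarate/malate carrier of the malate-aspartate shuttle, had 203, 197 and 193 CPM in shcontrol and 165, 171 and 160 CPM in shHNRNPC. It fell 1.195-fold (log2 fold change -0.26, SE 0.031, edgeR adjusted p = 7.27e-10), and -0.43 after the correction.

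SLC25A1, the citrate carrier that supplies carbon for fatty acid and sterol synthesis, stood at 158, 153 and 158 CPM in shcontrol and at 168, 167 and 169 CPM in shHNRNPC. The 1.08-fold rise (log2 fold change 0.11, SE 0.031, edgeR adjusted p = 0.00238) was not called with library size alone (0.07) and turned to a called fall of -0.08 after the GC and length correction. SLC25A10, the dicarboxylate carrier, had a log2 fold change of 0.12 (SE 0.078) at 19.3 ± 1.205 and 21.0 ± 0.969 CPM. Its counts are uncertain, because 59.3% of the 50-base stretches of its transcript also occur in an annotated transcript of an overlapping gene on the same strand. SLC25A21, the oxodicarboxylate carrier, stood at 3.35 ± 0.642 and 2.58 ± 0.129 CPM and did not pass (log2 fold change -0.39, SE 0.20, edgeR adjusted p = 0.0891).

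Of the carriers of other nucleotides and cofactors 2 were higher and 2 lower of 7 tested, beside 29.8% and 31.3% of all tested genes. SLC25A36, a pyrimidine nucleotide carrier, had 28.6, 28.2 and 27.4 CPM in shcontrol and 21.1, 21.2 and 16.6 CPM in shHNRNPC, SI_3_3 being the lowest. It fell 1.43-fold (log2 fold change -0.52, SE 0.078, edgeR adjusted p = 1.54e-07), while SLC25A33, the other pyrimidine nucleotide carrier, had 42.7, 42.4 and 41.7 CPM against 39.8, 42.8 and 43.9 CPM and a log2 fold change of -0.00055. The counts of SLC25A33 are uncertain, since 20.7% of its 50-base stretches occur in other annotated transcripts, most of them in a processed pseudogene. SLC25A16, linked to coenzyme A in mitochondria, fell 1.41-fold, from 10.99, 9.68 and 10.97 CPM to 6.51, 7.87 and 8.03 CPM (log2 fold change -0.50, SE 0.11, edgeR adjusted p = 2.24e-04). Both falls were lost after the GC and length correction, at -0.14 for SLC25A36 (adjusted p = 0.102) and -0.20 for SLC25A16 (adjusted p = 0.147). That correction can also remove a difference between the groups that follows GC content or length, so it does not decide between the 2 results.

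SLC25A17, a peroxisomal carrier of coenzyme A and related cofactors, rose 1.19-fold, from 54.9 ± 0.801 to 65.3 ± 0.651 CPM (log2 fold change 0.25, SE 0.046, edgeR adjusted p = 7.75e-06), and by 0.48 on the log2 scale after the correction. SLC25A42, a mitochondrial coenzyme A carrier, rose 1.22-fold, from 10.5 ± 1.56 to 12.8 ± 0.740 CPM (edgeR adjusted p = 0.0149). That call was lost with DESeq2 (adjusted p = 0.0757), the GC and length correction (0.184), and the fits without NC_3_3 (0.181) or SI_3 (0.0692). SLC25A51, the NAD carrier, had 3.58 ± 0.581 and 3.75 ± 0.403 CPM and a log2 fold change of 0.07 (SE 0.18). Its counts are uncertain, since its coding sequence is 97.6% identical to that of SLC25A52, which had 0 or 1 count per library, and 28.5% of its 50-base stretches occur in other annotated transcripts. In GENCODE 29 another protein-coding gene, AL138752.2, also overlaps SLC25A51 on the same strand over 24954 bases.

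Of the relatives of the uncoupling proteins, SLC25A30 rose 1.14-fold, at 29.4, 31.4 and 32.4 CPM in shcontrol and 37.1, 36.9 and 32.5 CPM in shHNRNPC (log2 fold change 0.19, SE 0.064, edgeR adjusted p = 0.00973). The groups barely parted, and the call was lost without NC_3 (adjusted p = 0.0596), SI_3 (0.0605) or SI_3_2 (0.0602), whereas the log2 fold change was 0.44 after the GC and length correction. SLC25A14 stood at 15.5 ± 0.374 and 15.1 ± 1.33 CPM and SLC25A27 at 1.65 ± 0.215 and 1.26 ± 0.0540 CPM, and neither passed. Among carriers for which no substrate is named here 2 fell of 5 tested, SLC25A46 and SLC25A43, where 31.3% of all tested genes fell. SLC25A43 fell 1.16-fold, with overlapping groups of 27.0, 21.5 and 24.3 CPM and 20.9, 19.0 and 23.0 CPM (edgeR adjusted p = 0.0195). That call was lost with DESeq2 (adjusted p = 0.0962) and without NC_3 (0.167) or SI_3_2 (0.156). SLC25A53, SLC25A45 and SLC25A35 had log2 fold changes of 0.55, 0.29 and 0.16 with standard errors of 0.28, 0.18 and 0.14 and did not pass. Of these, SLC25A53 was called at 0.85 after the correction and SLC25A45 at 0.45 without SI_3_3.

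The remaining 6 genes fell below the filter on low counts and were not tested. SLC25A34 had 5 to 18 counts per library, SLC25A41 0 to 5, SLC25A48 0 to 2, and SLC25A2, SLC25A47 and SLC25A52 had 0 or 1. SLC25A47 is known as a carrier of liver.

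In 4 pairs of carriers with related substrates, the ratio of the 2 genes was compared within each library, which removes any scaling between libraries. The log2 ratio of SLC25A37 to SLC25A28 was -0.32 ± 0.029 in shcontrol and -0.94 ± 0.031 in shHNRNPC. The ratio of SLC25A13 to SLC25A12 was 2.41 ± 0.093 and 2.05 ± 0.066, and that of SLC25A36 to SLC25A33 was -0.59 ± 0.013 and -1.11 ± 0.26. With the ratio of SLC25A40 to SLC25A39 given above, the differences of shHNRNPC minus shcontrol were -1.55 for SLC25A40 to SLC25A39, -0.62 for SLC25A37 to SLC25A28, -0.35 for SLC25A13 to SLC25A12 and -0.52 for SLC25A36 to SLC25A33. In each pair all 3 shHNRNPC ratios lay below all 3 shcontrol ratios, but the sign follows the order chosen for the 2 genes. In SLC25A37 to SLC25A28 and SLC25A13 to SLC25A12 the second gene rose, and in the other pairs the first gene fell. The ratios use the same counts as the calls of the single genes. For single genes, groups did not overlap in 63.9% of all tested genes. The two-sided exact permutation p was 0.10 for each pair and 0.10 after adjustment over the 4 pairs, the smallest value that 3 against 3 libraries allow, so this test could not pass 0.05. After the GC and length correction the differences were -0.98 for SLC25A40 to SLC25A39 and -0.18 for SLC25A36 to SLC25A33, against -0.43 for SLC25A37 to SLC25A28 and -0.36 for SLC25A13 to SLC25A12. The pairs SLC25A5 with SLC25A6 and SLC25A24 with SLC25A23 were not tested.

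**Figure D3:**
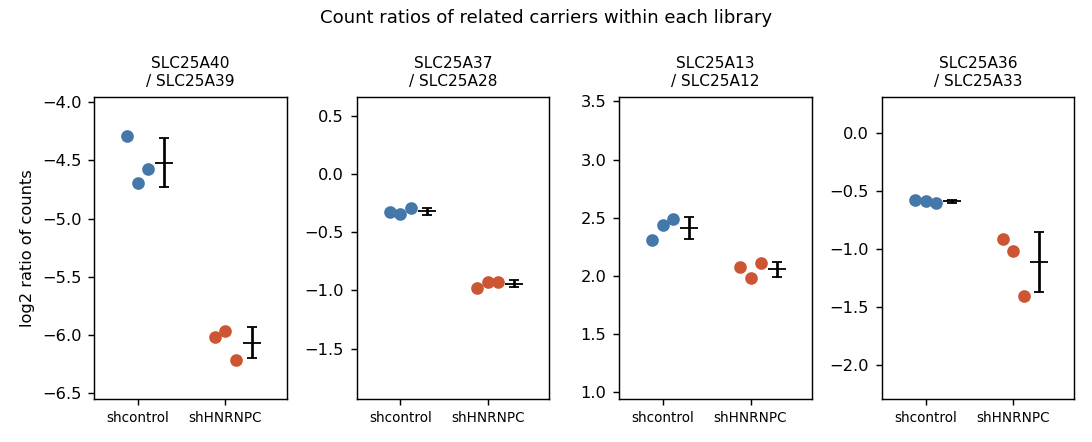
Log2 ratios of counts of 4 pairs of related carriers in each library, with the mean and SD of 3 libraries beside the points. All panels span the same range of log2 units, and the drop from shcontrol (blue) to shHNRNPC (red) is 1.55 for SLC25A40 over SLC25A39 and between 0.35 and 0.62 in the other pairs. The direction follows which gene of a pair is placed first.

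Per kilobase of the principal annotated transcript, SLC25A5 led the family in shcontrol at 1056 ± 6.06 RPKM. SLC25A3 followed at 321 ± 8.20, SLC25A39 at 172 ± 3.20, SLC25A11 at 104 ± 2.66 and SLC25A1 at 94.6 ± 1.76 RPKM. These neighbours in the order differed by more than their SDs, as did SLC25A22 (60.6 ± 1.104), SLC25A25 (48.4 ± 1.01), SLC25A13 and SLC25A4 after them. Some neighbours lower down did not: SLC25A4 (28.5 ± 0.349) and SLC25A15 (27.7 ± 0.714), or SLC25A38 (24.5 ± 0.620), SLC25A17 (24.3 ± 0.354) and SLC25A28 (23.7 ± 0.303), lay within about their summed SDs of each other. SLC25A40 ranked 31 of 43 by this measure. The level per length of SLC25A3 depends on the choice between the transcripts given above.

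Properties that the symbol does not use were compared as descriptions. Genes called lower had a median transcript GC content of 46.6% and a median gene span of 37812 bases, those called higher 56.0% and 20194 bases, and those not called 49.9% and 19672 bases. Spearman's rho of the log2 fold change with transcript GC content was 0.36 over the 37 SLC25 genes and 0.43 over all tested genes. With transcript length it was -0.13 over the SLC25 genes and -0.32 over all tested genes. All genes share the same 6 libraries, so these are not independent observations.

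**Figure D4:**
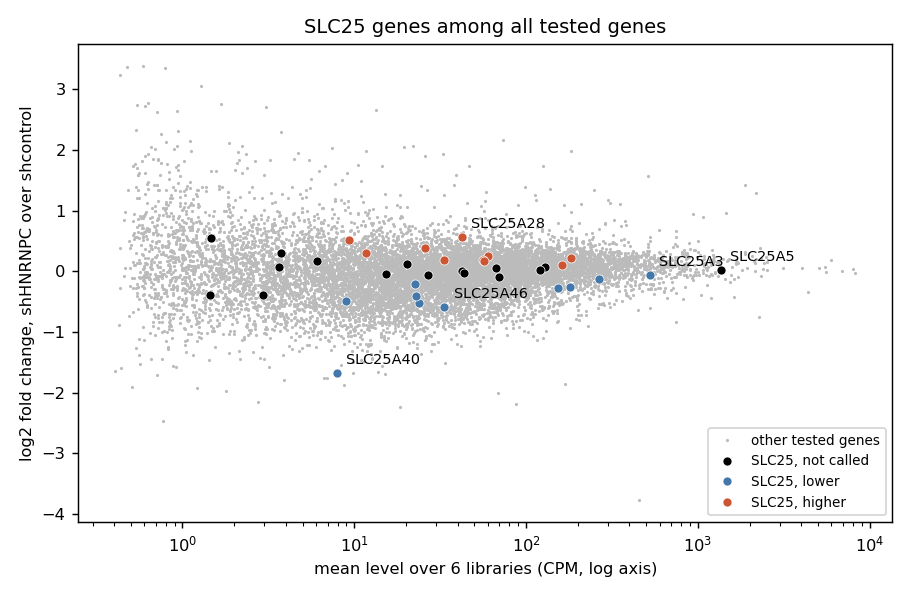
Log2 fold change of shHNRNPC over shcontrol against the mean level (CPM, log axis) for 11831 tested genes, with 36 of the 37 tested SLC25 genes as larger points. SLC25A40 lies at the lower edge of the cloud of all genes, ranked 17 from the lowest, and SLC25A5 is the most abundant of the family.

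Of the genes that start within 1000 bases of an SLC25 gene on the opposite strand, 6 were tested. Calls were made for 61.1% of all tested genes, 29.8% higher and 31.3% lower. RNF167, beside SLC25A11, rose 1.19-fold while SLC25A11 fell, and NAIF1, beside SLC25A25, rose 1.105-fold with overlapping groups (edgeR adjusted p = 0.0386) while SLC25A25 fell. DBF4 fell with SLC25A40. METAP1D beside SLC25A12, PANO1 beside SLC25A22 and CYP39A1 beside SLC25A27 did not pass.

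Newly made carriers pass the TOMM pore and are guided to the TIM22 complex by small TIMM chaperones. Of 12 tested import genes 4 rose and 2 fell, with a median of 0.03, where 29.8% of all tested genes rose and 31.3% fell. Higher were TIMM8A, TIMM8B, TIMM10 and TOMM22, and lower were TOMM40 and TOMM70. The groups overlapped for TIMM8A (edgeR adjusted p = 0.0368), where NC_3_2, at 45.2 CPM, lay above every shHNRNPC library. Levels are given for the 2 most abundant. TOMM40, the pore, stood at 1345 ± 21.7 and 1280 ± 19.3 CPM, a 1.05-fold fall, and TIMM13 stood at 247 ± 7.99 and 250 ± 5.43 CPM and did not pass. Among carrier relatives with other symbols MTCH1 rose 1.13-fold, from 372 ± 6.91 to 421 ± 4.70 CPM, UCP2 stood at 24.7 ± 1.02 and 24.6 ± 1.95 CPM, and MTCH2 had 0 or 1 count per library.

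Of all tested genes 29.8% rose and 31.3% fell, and 9.12% were called lower by at least 1.5-fold. Of 20 tested genes for other channels and transporters of mitochondria 6 rose and 5 fell, with a median of -0.04. The falls of at least 1.5-fold were in ABCB10, a transporter of the inner membrane linked to heme synthesis, at 15.8, 14.99 and 15.97 CPM in shcontrol and 9.06, 8.90 and 9.27 CPM in shHNRNPC, and in MICU2, a regulator of the calcium uniporter. ABCB10 fell 1.72-fold (edgeR adjusted p = 1.78e-09). MICU2 fell 1.58-fold, from 24.1, 24.4 and 22.3 CPM to 16.4, 15.2 and 13.3 CPM (edgeR adjusted p = 3.28e-09).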

How the data were processed

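Gene counts of 6 RNA sequencing libraries, 3 per group, were used. STAR, HTSeq 0.6.0 and DESeq2 are named in the submitters' processing notes; for build, annotation and strand, the setting is not given in the sources used here. Columns of raw read counts, deposited without normalisation, hold whole numbers only. Per the file headers, the deposited table also gives the authors' own log2 fold changes and p-values, used here for SLC25 genes only. Library columns name the group but not the sample, and 24 other columns of per-library values were not used. The 43 SLC25 positions were each found to overlap the GENCODE 29 gene with the same symbol.

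Counts were filtered with filterByExpr, scaled by TMM and tested with glmQLFTest in edgeR 4.0.16 (R 4.3.3) with Benjamini-Hochberg adjustment over 11831 genes at a threshold of 0.05; the scripts were checked on simulated counts. A standard error is the log2 fold change over the square root of F. Levels per length use the APPRIS principal transcript of GENCODE 29. The GC and length correction enters smooth terms (mgcv 1.9.3) of the longest coding transcript as offsets. The terms are fitted in each library, so a knockdown effect that follows GC content or length is removed with any technical trend. Alternatives were RLE, upper quartile and plain library size scaling, DESeq2 1.42.0, voom in limma 3.58.1, no filter, a mean of at least 1 CPM, this correction, leaving out each library and, added after seeing the data, a block on column suffixes. Libraries of a group differed by a chi-square of 1.56 to 2.50 per gene and those of different groups by 29.4 to 33.6, so no library was a copy of another. Promoters are from RefSeq (GRCh38.p14).

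Values in every library are given for HNRNPC, for genes called and changed at least 1.5-fold, for the 5 most abundant SLC25 genes, for the tested pairs and for further genes chosen after their values were seen; from other lists, genes changed at least 1.5-fold or else the 2 most abundant. Of the tested SLC25 genes 1 is counted but not reported here by name. The SLC25 genes and lists were chosen with earlier results of these data known.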

Additional observations from a re-analysis of the deposited data

How the results depend on the processing

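Of the 20 called SLC25 genes, 12 kept call and direction under all 16 alternatives, among them SLC25A40 (log2 fold change -1.77 to -1.29), SLC25A46 (-0.63 to -0.45) and SLC25A28 (0.36 to 0.57). The counts of genes higher (8 to 12) and lower (9 to 12) stayed within 1.5 times the 10 and 10 reported. The count called higher by at least 1.5-fold, 0 as reported, was 1 after the GC and length correction and 0 to 1 over the fits without 1 library (1 without NC_3_2 or SI_3_3). The count called lower by at least 1.5-fold, 2 as reported, was 1 with upper quartile scaling, 1 after the GC and length correction and 1 to 2 over the fits without 1 library (1 without NC_3_3 or SI_3_3). The GC and length correction turned the sign of SLC25A1 (-0.082), SLC25A3 (0.105), SLC25A5 (-0.129), SLC25A10 (-0.052), SLC25A23 (-0.061), SLC25A33 (0.042) and SLC25A51 (-0.095); the cause was not tested. Library size alone turned SLC25A5 (-0.017) and SLC25A13 (-0.013). SLC25A33, at -0.00055, had the other sign with RLE (0.0058), upper quartile scaling (0.014), DESeq2 (0.0026), no filter (0.0032), the 1 CPM filter (0.0034) and without NC_3 (0.0037), NC_3_2 (9.0e-04) or SI_3 (0.037). Leaving out 1 library also turned SLC25A14 (0.026 without SI_3_2), SLC25A15 (0.0051 without SI_3) and SLC25A51 (-0.049 without NC_3_3, -0.018 without SI_3). Over the fits without 1 library the ranges were -0.104 to 0.026 for SLC25A14, -0.053 to 0.0051 for SLC25A15, -0.030 to 0.037 for SLC25A33 and -0.049 to 0.193 for SLC25A51. The SLC25A40 to SLC25A39 difference was -1.64 to -1.43 without 1 library and -0.98 after the GC and length correction, and that of SLC25A36 to SLC25A33 was -0.18 after it (an alternative chosen after seeing the data).

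The count columns carry no replicate number that matches the sample titles, but both groups share the same 3 suffixes. Deviations from the group means correlated at -0.090, 0.050 and -0.054 between libraries with the same suffix (8543 genes of at least 10 CPM), so the suffixes were not taken to pair the libraries. A replicate block by suffix, chosen after seeing the data, left the counts at 10 higher, 10 lower, 0 higher and 2 lower by at least 1.5-fold, and none of the 20 calls was lost. The block together with the GC and length correction gave 1 higher and 1 lower by at least 1.5-fold and turned the same genes as the correction alone: SLC25A1 (-0.082), SLC25A3 (0.106), SLC25A5 (-0.129), SLC25A10 (-0.052), SLC25A23 (-0.061), SLC25A33 (0.041) and SLC25A51 (-0.092). At these depths genes of a few CPM, such as SLC25A53 and SLC25A27, had standard errors of 0.28 on the log2 scale, which limits what could be called in them.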
